A study of Papio anubis with 25 samples.

Results

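The genes described here are those by which duct cells take up sodium under the control of mineralocorticoid hormones. They were chosen by symbol: SCNN1B and SCNN1G, which encode the beta and gamma subunits of the epithelial sodium channel ENaC, NR3C2 (the mineralocorticoid receptor), HSD11B2 (a cortisol-inactivating enzyme) and SGK1 (an aldosterone-induced kinase). These 5 genes were found among the 21287 genes of the expression table, and the sixth listed symbol, SCNN1A (the alpha subunit), was not analysed here. Bulk RNA sequencing had been done on tissue of 5 olive baboons (Papio anubis, an Old World monkey), of which animals 1 to 4 were female and animal 5 was male. From every animal there was 1 library each of the parotid, submandibular and sublingual salivary glands, taken on the left side, of the pancreas and of the liver, so that each tissue had 5 libraries and the whole series 25. Ages were not given in the sources used here. Each library came from 3 flash-frozen sections of 30 µm, so it samples a small piece of its organ. Expression is given as TPM (a transcript abundance scaled to the same total in every library and adjusted for the length of the transcript), and differences between tissues are given on the log2(TPM + 1) scale, which understates the change of low genes.

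Salivary glands make saliva in a pair of steps. Acinar cells secrete a plasma-like fluid, and the striated and excretory ducts then take sodium and chloride back from it, leaving saliva dilute. Sodium enters the duct cell through ENaC at the luminal side and leaves through the sodium pump at the other side. Aldosterone binds the mineralocorticoid receptor and raises SGK1, whose kinase keeps the ubiquitin ligase NEDD4L from removing ENaC from the membrane. Cortisol binds the same receptor, and the enzyme encoded by HSD11B2 protects the receptor by turning cortisol into cortisone, while HSD11B1, abundant in liver, runs the reverse reaction. Pancreatic ducts are known mainly for secreting bicarbonate through CFTR, and hepatocytes have no such duct function.

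The libraries were first compared with markers of their labelled tissue. Albumin and the other hepatocyte markers summed to between 37651 and 62390 TPM in liver and to at most 887 TPM elsewhere, and the pancreatic acinar markers summed to between 63652 and 126438 TPM in pancreas and to at most 1808 TPM elsewhere. The salivary libraries were less uniform. AQP5, the water channel of salivary acinar cells, was between 40.5 and 226 TPM in 10 gland libraries. It was between 2.25 and 5.40 TPM in the parotid of baboons 2 and 5, the submandibular gland of baboon 2 and the sublingual gland of baboons 2 and 4, near its level in pancreas (2.53 to 4.52 TPM) and liver (1.98 to 3.90 TPM). Other acinar markers did not all follow AQP5. In the parotid of baboon 5, PIP (1098 TPM) and ZG16B (2047 TPM) were the highest of the parotids and BHLHA15 was 55.4 TPM, while LPO was low (5.88 TPM). PIP and ZG16B also reached 1092 and 1813 TPM in liver, so these levels alone do not show acinar content. The sum of these markers with AQP5 was 990 to 3210 TPM in parotid, 570 to 2737 TPM in pancreas and 290 to 2563 TPM in liver. Lymphocyte markers summed to 912 TPM in the parotid of baboon 5, where the next highest parotid had 32.4 TPM. Adipocyte markers summed to 21274 TPM in the parotid of baboon 2, skeletal muscle markers to 62055 TPM in the sublingual gland of baboon 2, and squamous mucosa markers to 81792 and 20578 TPM in the sublingual glands of baboons 1 and 4. Some values without these libraries are given with the results below, and further changes are given only as counts of calls. In bulk tissue, fewer duct cells and less RNA per duct cell cannot be told apart.

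SCNN1B was above its liver level in the pancreas and in all 3 glands, and its highest values were in 2 sublingual libraries. In baboons 1 to 5 in turn, SCNN1B was 0.205, 0.459, 0.363, 0.249 and 0.829 TPM in liver. In pancreas it was 8.68, 6.29, 6.07, 10.8 and 3.40 TPM. In parotid it was 2.06, 4.97, 5.99, 2.34 and 6.32 TPM. All pancreas and parotid libraries thus lay above all liver libraries. In the submandibular gland it was 4.49, 6.68, 5.23, 6.38 and 3.43 TPM, the narrowest spread of any member in a gland relative to its mean save NR3C2 in the same gland. In the sublingual gland it was 49.1, 0.609, 2.74, 37.2 and 2.46 TPM, so that baboons 1 and 4 stood well above all other libraries and baboon 2 fell within the liver range. The mean level was 18.4 ± 23.0 TPM (SD, n = 5) in the sublingual gland, 7.05 ± 2.81 in pancreas, 5.24 ± 1.34 in the submandibular gland, 4.34 ± 2.01 in parotid and 0.421 ± 0.249 in liver.

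**Figure D1:**
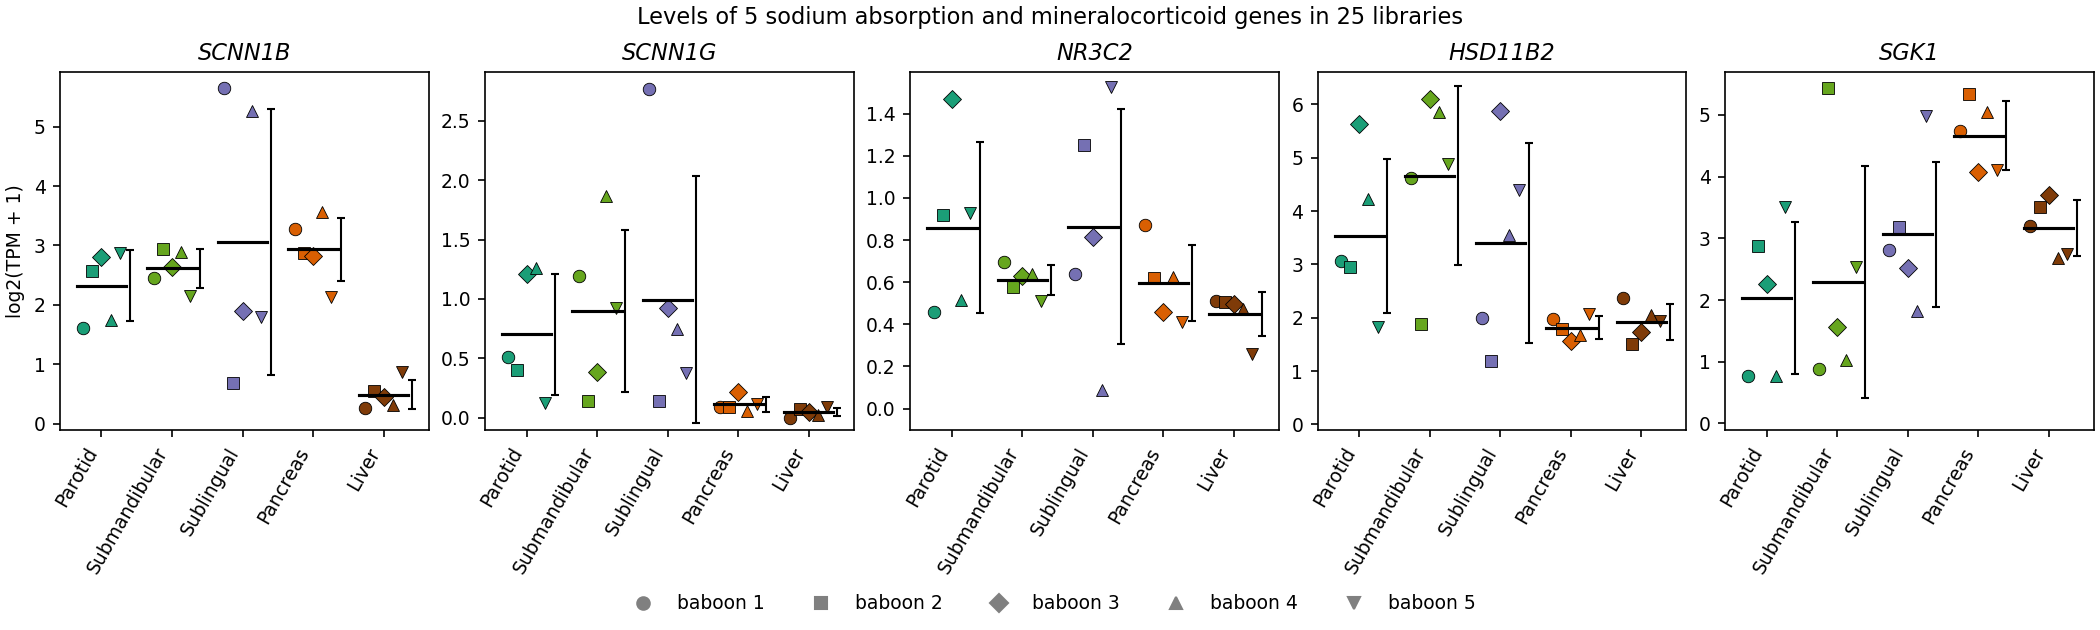
Levels of SCNN1B, SCNN1G, NR3C2, HSD11B2 and SGK1 by tissue, as log2(TPM + 1) on the vertical axis. Each marker is 1 library, its shape gives the animal, and the bars give mean and SD over 5 animals. SCNN1B is low in all 5 liver libraries, HSD11B2 spreads widely within each gland and stays low in pancreas and liver, and SGK1 is high in all 5 pancreas libraries.

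The tests were made over all genes with limma (a linear model with moderated errors, tissue and animal as terms), with p-values adjusted over genes by the Benjamini-Hochberg method. A difference is named as called where the adjusted p was under 0.05 and the log2 fold change was 1 or more in either direction. Where all libraries of a tissue are said to lie above or below those of another, the share of all genes that do so was not counted. Such statements only describe the values. Between pancreas and liver, SCNN1B was higher in pancreas by 2.44 (SE 0.65, adjusted p = 0.0087), in 5 of 5 animals. It was the only member of the 4 tested to be called there, in a comparison in which 17.5% of all 14991 tested genes were called. Against liver, SCNN1B was also higher in the submandibular gland by 2.12 (SE 0.65, adjusted p = 0.0248) and in the sublingual gland by 2.57 (SE 0.65, adjusted p = 0.00698), each in 5 of 5 animals. The parotid difference of 1.83 (SE 0.65, adjusted p = 0.0628) had the same sign in 5 of 5 animals and missed the threshold. The share of all genes called was 16.5% for the submandibular gland, 15.4% for the sublingual gland and 13.8% for the parotid, each against liver.

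The sublingual value of SCNN1B rested on the libraries of baboons 1 and 4. These were the libraries whose squamous mucosa markers, genes such as KRT13 and KRT4 of the lining of the mouth, summed to 81792 and 20578 TPM, against 268 to 373 TPM in the other 3 sublingual libraries. Without them the difference from liver was 0.92 (adjusted p = 0.20), and the difference from pancreas changed from 0.12 (SE 0.65, adjusted p = 0.901) to -1.52 (adjusted p = 0.0584). Leaving out all tissues of baboon 1 or of baboon 4 also ended the call against liver (adjusted p = 0.078 and 0.0839). The submandibular call against liver was lost without baboon 3 (adjusted p = 0.103) or baboon 4 (adjusted p = 0.0786), with the log2 difference at 2.11 and 2.01. Between the 3 glands and pancreas no SCNN1B difference was called. Its order of means from sublingual gland to parotid thus has no neighbours that differ beyond their spread.

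SCNN1G, the gamma subunit whose inhibitory segment is cut out by proteases to open the channel, was far below SCNN1B. In baboons 1 to 5 it was 0.428, 0.318, 1.32, 1.40 and 0.0907 TPM in parotid. It was 1.28, 0.102, 0.303, 2.64 and 0.895 TPM in the submandibular gland. It was 5.81, 0.103, 0.899, 0.682 and 0.301 TPM in the sublingual gland. All 3 glands held libraries above 1 TPM and libraries near 0.1 TPM, and the sublingual library of baboon 1, high also for SCNN1B, was the highest of all. In pancreas SCNN1G ran from 0.0382 to 0.163 TPM, and in liver from a value listed at 0 in baboon 1 to 0.0638 TPM. SCNN1G passed the filter on low values, a mean of at least 1 TPM in at least 1 tissue, only through the submandibular gland (1.05 ± 1.01 TPM, SD, n = 5) and the sublingual gland (1.56 ± 2.40 TPM).

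SCNN1G was not called in any of the 10 tissue pairs. Against pancreas its difference was 0.59 (SE 0.35, adjusted p = 0.354) in parotid, 0.79 (adjusted p = 0.346) in the submandibular gland and 0.88 (adjusted p = 0.104) in the sublingual gland. It was higher in the gland in 5 of 5 animals in each of these comparisons, although the groups overlapped. Against liver, where SCNN1G was near the floor at 0.0638 TPM at most, the differences of the 3 glands were 0.66, 0.85 and 0.95. Their adjusted p-values were 0.255, 0.109 and 0.0736. Without the sublingual libraries rich in squamous markers, the sublingual differences were 0.49 (adjusted p = 0.52) from pancreas and 0.56 (adjusted p = 0.306) from liver. Without the 5 gland libraries low in AQP5, a choice made after the values were seen, they were 1.33 (adjusted p = 0.0165) and 1.40 (adjusted p = 0.0131). The medians over all genes in that fit were 0.76 and 0.29.

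The subunits are encoded by neighbouring genes in the order of the Panubis1.0 assembly, and a working channel takes in both of them together with the alpha subunit. SCNN1B exceeded SCNN1G in all 24 libraries where the ratio had a value. The median ratio of SCNN1B to SCNN1G was 100 in pancreas, with a range of 37.3 to 283. In the 15 gland libraries it was 5.93, with a range of 1.68 to 69.6. Pancreas thus held SCNN1B within the range of the gland libraries, and SCNN1G at 0.163 TPM at most. Across the 15 gland libraries the levels of the subunits had a Spearman rho of 0.17, a description of libraries that share animals. SCNN1D, which encodes the delta subunit, averaged between 0.0379 TPM in pancreas and 0.490 TPM in the sublingual gland and reached 1.01 TPM in 1 library.

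NR3C2, the receptor through which aldosterone acts, was low in every tissue. Its mean was 0.928 ± 0.710 TPM (SD, n = 5) in the sublingual gland, 0.873 ± 0.558 in parotid, 0.528 ± 0.0741 in the submandibular gland, 0.523 ± 0.196 in pancreas and 0.368 ± 0.0961 in liver. The extremes were both sublingual, 0.0642 TPM in baboon 4 and 1.88 TPM in baboon 5. In the parotid it was 0.376, 0.892, 1.77, 0.431 and 0.900 TPM in baboons 1 to 5. The 5 tissues overlapped in every pair. No tissue mean reached 1 TPM, so NR3C2 did not enter the main fit. In a limma fit without the filter it was not called in any of the 10 pairs, with adjusted p-values from 0.236 to 1. The largest difference in that fit was 0.41 (SE 0.21) for the sublingual gland over liver.

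NR3C1, the glucocorticoid receptor, which also binds cortisol, exceeded NR3C2 in all 25 libraries, by 1.32 times at least. The median ratio of NR3C1 to NR3C2 was 1.62 in pancreas, 2.56 in parotid, 2.79 in the submandibular gland, 5.87 in the sublingual gland and 6.01 in liver. NR3C1 was higher in the sublingual gland (3.78 ± 2.30 TPM) than in pancreas (0.912 ± 0.261 TPM) by 1.22 (SE 0.39, adjusted p = 0.0477), in 5 of 5 animals. With TMM scaling, which corrects for a few genes taking much of a library, that difference was 0.73 and under the fold threshold, and without the squamous-rich sublingual libraries it was 1.02 (adjusted p = 0.285).

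HSD11B2, the enzyme that keeps cortisol from the mineralocorticoid receptor, reached higher levels in most gland libraries than in pancreas and liver, while 4 of the 15 lay within or below the range of those organs (1.83 to 4.19 TPM). In the submandibular gland of baboons 1 to 5 it was 23.5, 2.67, 67.3, 57.2 and 28.4 TPM. In parotid it was 7.31, 6.73, 48.6, 17.7 and 2.54 TPM, and in the sublingual gland 2.98, 1.28, 57.5, 10.8 and 20.1 TPM. Baboon 3 had the highest value in each of the 3 glands, and baboon 2 the lowest in the submandibular and sublingual glands. In pancreas HSD11B2 ran from 1.95 to 3.21 TPM (2.55 ± 0.515, SD, n = 5) and in liver from 1.83 to 4.19 TPM (2.87 ± 0.896), the tightest ranges of the gene. The gland means were 35.8 ± 26.2 TPM in the submandibular gland, 18.5 ± 23.0 in the sublingual gland and 16.6 ± 18.7 in parotid.

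The submandibular gland was above pancreas for HSD11B2 by 2.85 (SE 0.65, adjusted p = 0.0087), in 5 of 5 animals. Of the 4 members tested, 2 were called between these tissues, HSD11B2 higher and SGK1 lower in the gland, where 4.08% of all genes were called. Against liver the submandibular difference in HSD11B2 was 2.75 (SE 0.65, adjusted p = 0.00356), in 5 of 5 animals. The parotid difference from pancreas was 1.72 (SE 0.65, adjusted p = 0.16) and the sublingual one 1.59 (SE 0.65, adjusted p = 0.107), each higher in 4 of 5 animals and neither called. The submandibular call against pancreas was lost without baboon 3 (2.43, adjusted p = 0.0668) or baboon 4 (2.52, adjusted p = 0.121). The order of means from submandibular to sublingual gland to parotid has no neighbours that differed by the test, nor did pancreas and liver differ.

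HSD11B2 tended to be lower in the gland libraries with little AQP5, although the ranges overlapped. In the 5 gland libraries with AQP5 under 10 TPM it was between 1.28 and 10.8 TPM, and in the other 10 it was between 2.98 and 67.3 TPM. In the fit of all libraries only the submandibular difference from pancreas was called. Leaving out the 5 libraries low in AQP5 was a choice made after the values were seen. It took out mostly low HSD11B2 values, so larger differences follow in part from the choice itself. Without those libraries the differences from pancreas were 2.43 (adjusted p = 0.0149) in parotid, 3.49 (adjusted p = 0.000265) in the submandibular gland and 2.24 (adjusted p = 0.0087) in the sublingual gland, all 3 called. The medians over all genes in that fit were -0.13, -0.087 and 0.76. In the sublingual comparison it also called more genes of all kinds than the main fit. As a sum, ionocyte markers (ASCL3, FOXI1, ATP6V1G3 and BSND, of a rare duct cell rich in proton pumps) varied with HSD11B2. ATP6V1G3 and BSND reached only 1.66 and 0.545 TPM in the gland libraries. Where the sum was highest, in the sublingual gland of baboon 3, ASCL3 was 39.9 and FOXI1 12.2 TPM, and both others were listed at 0. The ionocyte sum is thus mainly that of ASCL3 and FOXI1. This sum ranged from 0 to 10.4 TPM in the submandibular gland, 0.110 to 15.9 TPM in parotid and 0.195 to 52.1 TPM in the sublingual gland, and it stayed under 0.86 TPM in pancreas and liver. Over the 15 gland libraries its Spearman rho with HSD11B2 was 0.94, that of the general epithelial markers (EPCAM, CDH1, KRT8 and KRT18) was 0.83 and that of the duct markers 0.41. The salivary acinar sum had a rho of 0.70 with HSD11B2, above that of the duct markers. The endothelial sum had -0.62 and immediate early genes such as FOS had -0.64. CLDN4 was 332 of 467 TPM of the duct sum in the sublingual gland of baboon 1. In that of baboon 4, CLDN4, KRT7 and KRT19 were 197, 149 and 149 of 527 TPM. Both libraries were rich in squamous markers, and which cells these transcripts came from was not tested. TFCP2L1, also a duct marker, was the gene most like HSD11B2 over all 25 libraries (rho 0.88). The 15 libraries come from 5 animals and share the composition of their pieces, and the part of cell content in the HSD11B2 differences was not tested.

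**Figure D2:**
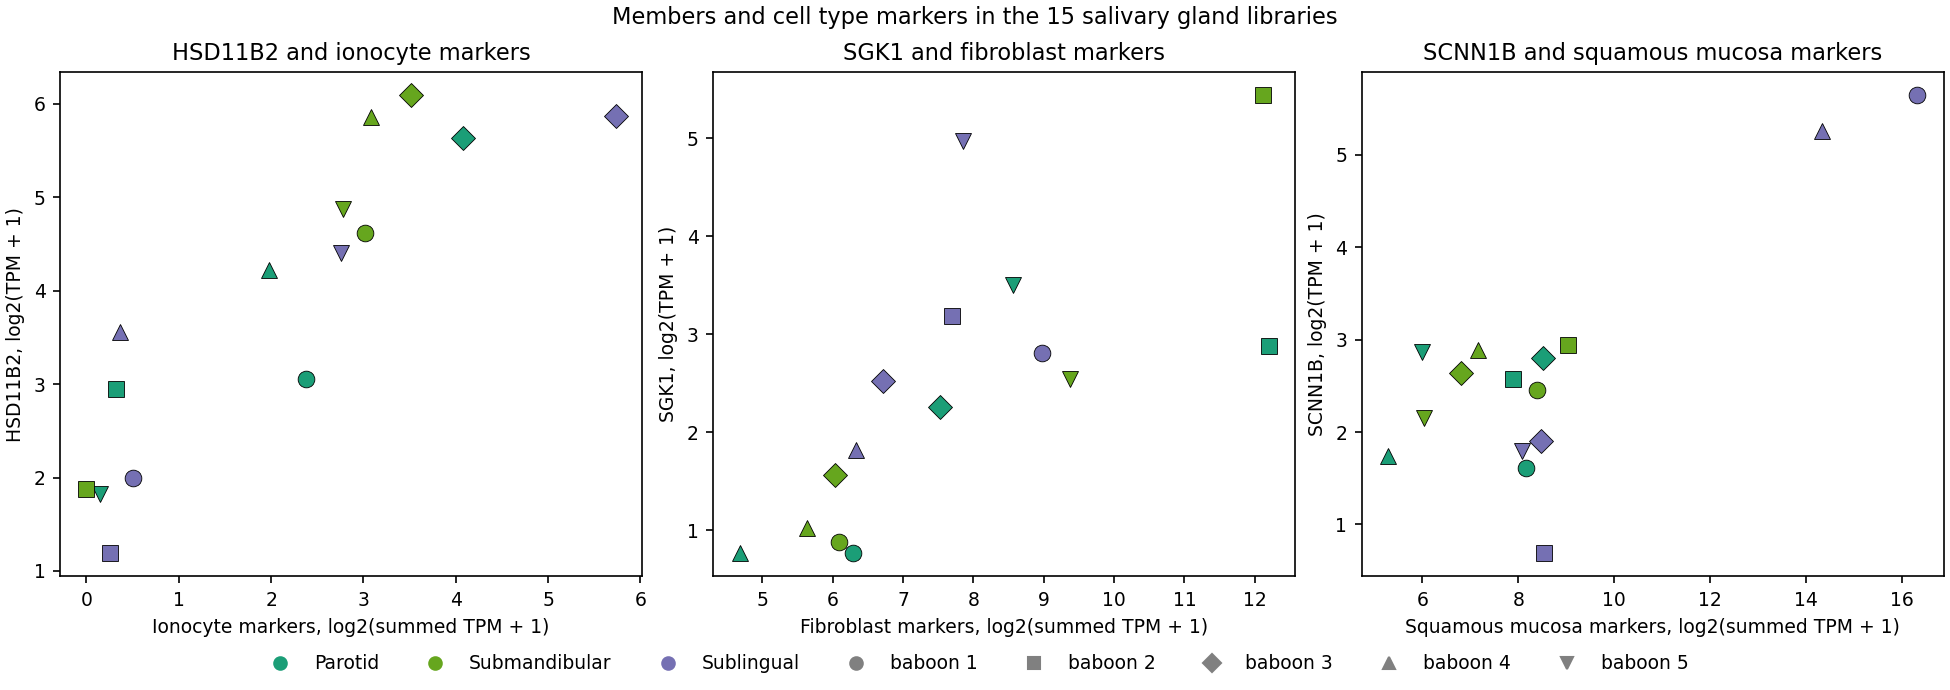
Levels of 3 members against summed marker levels in the 15 gland libraries, both axes as log2(TPM + 1), with colour for the gland and shape for the animal. HSD11B2 rises with the ionocyte sum from 1.28 to 67.3 TPM, SGK1 tends to be higher at a higher fibroblast sum, with the parotid of baboon 2 low for its sum (6.35 TPM of SGK1 at 4688 TPM) and the sublingual gland of baboon 5 high for its sum (30.5 TPM at 231 TPM), and SCNN1B stands out in the 2 sublingual libraries rich in squamous markers.

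HSD11B1, the enzyme that makes cortisol from cortisone, was high in liver alone. It was 197, 213, 161, 150 and 47.2 TPM in the livers of baboons 1 to 5 (154 ± 64.8, SD, n = 5) and between 0.511 and 7.54 TPM in all 20 other libraries. Its difference between pancreas and liver was -5.63 (SE 0.40, adjusted p = 7.21e-11), lower in pancreas in 5 of 5 animals. The ratio of HSD11B2 to HSD11B1 was between 0.00857 and 0.0599 in liver. Its median was 1.11 in pancreas, 8.24 in parotid, 8.36 in the sublingual gland and 46.0 in the submandibular gland. In 12 of 15 gland libraries HSD11B2 was above HSD11B1, and the 3 exceptions were the glands of baboon 2, all with little AQP5. Outside liver, HSD11B1 was 0.333 to 4.91% of its liver mean, and albumin was 0.186 to 1.91% of its own.

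**Figure D3:**
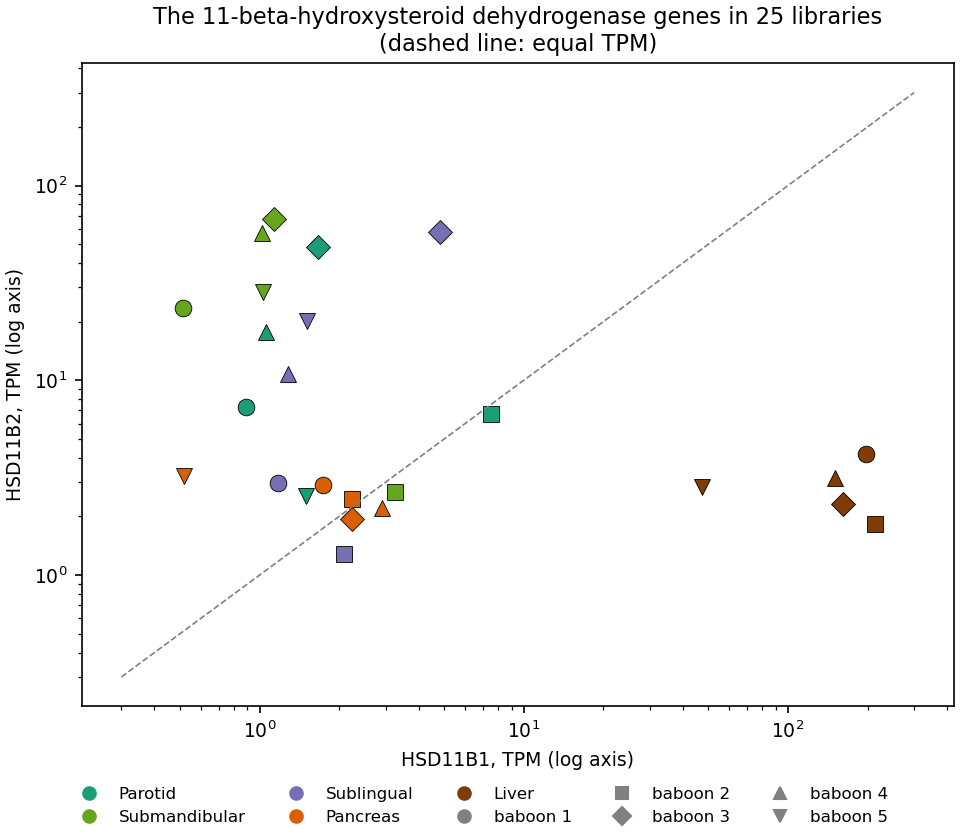
HSD11B2 against HSD11B1 in all 25 libraries, in TPM on log axes with a dashed line at equal levels, with colour for tissue and shape for animal. Liver libraries lie apart at high HSD11B1 (47.2 to 213 TPM) and low HSD11B2 (1.83 to 4.19 TPM), while gland libraries spread along the HSD11B2 axis up to 67.3 TPM.

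SGK1, the kinase induced by aldosterone and also by glucocorticoids and cell stress, was highest in pancreas. Its level in pancreas was 25.7, 39.6, 15.9, 32.0 and 16.3 TPM in baboons 1 to 5 (25.9 ± 10.2, SD, n = 5). In parotid it was 0.707, 6.35, 3.78, 0.697 and 10.3 TPM (4.37 ± 4.08), so that no parotid library reached any pancreas library. In the submandibular gland it was 0.841, 42.4, 1.96, 1.04 and 4.82 TPM (10.2 ± 18.1), where baboon 2 alone exceeded the pancreas range. In the sublingual gland it was 6.03, 8.11, 4.74, 2.53 and 30.5 TPM (10.4 ± 11.4), with baboon 5 within the pancreas range. With TMM scaling these high libraries were at 16.6 and 20.2 TMM-scaled TPM, both below all pancreas libraries (22.6 to 48.3). Liver was narrow, from 5.42 to 12.0 TPM (8.34 ± 2.89), below all pancreas libraries.

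Between parotid and pancreas SGK1 was the only member called, among 3.82% of all genes. It was lower in parotid by a log2 difference of -2.63 (SE 0.60, adjusted p = 0.00932), in 5 of 5 animals. The submandibular difference was -2.37 (SE 0.60, adjusted p = 0.0208), lower in 4 of 5 animals. The sublingual difference of -1.60 (SE 0.60, adjusted p = 0.0843), lower in 4 of 5 animals, was not called. Between sublingual gland and pancreas 0 of 4 tested members were called by limma, 3 had an unadjusted p under 0.05 (HSD11B2, SCNN1G and SGK1). Of all genes 9.47% were called and 31% had an unadjusted p under 0.05. Pancreas over liver was 1.50 (SE 0.60, adjusted p = 0.0921) for SGK1, with no overlap between the groups and no call.

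The SGK1 calls depended on single animals and on scaling. Without baboon 1 or 4, whose parotids were lowest, the parotid difference was -2.29 (adjusted p = 0.086) or -2.22 (adjusted p = 0.091). The submandibular call was lost without baboon 1, 3 or 4, with differences between -2.34 and -1.96 (adjusted p = 0.21, 0.135 and 0.217), and in a fit with no replicate block (-2.37, adjusted p = 0.0597). With TMM scaling SGK1 was lower than pancreas in all 3 glands, with differences of -3.22, -2.72 and -2.32 and adjusted p-values of 1.19e-05, 9.97e-05 and 0.000521, and higher in pancreas than in liver by 2.14 (adjusted p = 0.00043). When each library was instead centred on the epithelial genes CDH1, KRT8 and KRT18, which were lower in many gland libraries, the parotid and submandibular differences were -1.37 (adjusted p = 0.144) and -1.55 (adjusted p = 0.425). That centring moved the median of all genes from 0.45 to 1.70 in the parotid comparison and from 0.17 to 0.99 in the submandibular one.

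Within the glands SGK1 in TPM went with markers of several, but not all, kinds of cells other than duct cells, also in TPM. The summed fibroblast markers (COL1A1, DCN and LUM) were 4437 TPM in the submandibular library of baboon 2, where SGK1 was 42.4 TPM, and 48.7 to 67.0 TPM in those of baboons 1, 3 and 4, where it was 0.841 to 1.96 TPM. The fibroblast sum was as high in the parotid of baboon 2 (4688 TPM), where SGK1 was 6.35 TPM, and it was 231 TPM in the sublingual gland of baboon 5, where SGK1 was 30.5 TPM. Over the 15 gland libraries the Spearman rho of SGK1 was 0.87 with the endothelial sum, 0.85 with the fibroblast sum, 0.80 with the adipocyte sum and 0.79 with immediate early genes such as FOS and EGR1, which respond to tissue handling. It was -0.28 with the duct markers and -0.33 with the general epithelial markers. With the squamous mucosa, skeletal muscle and salivary acinar sums it was 0.25, 0.22 and -0.096. Between SGK1 and HSD11B2 the rho was -0.51. Without the 5 libraries low in AQP5 the parotid and submandibular differences in SGK1 from pancreas were -3.11 (adjusted p = 0.00103) and -3.03 (adjusted p = 0.000437), both farther from 0 than in all libraries. The medians over all genes were then -0.13 and -0.087. The rhos were computed on TPM without rescaling, and the 10 most abundant genes held 16.2 to 87.7% of TPM in the gland libraries. LOC103881672 alone was 416757 and 448743 TPM in the parotids of baboons 1 and 4, where SGK1 was 0.707 and 0.697 TPM. Such a gene lowers the TPM of all others in its library. The part of this, of other cell types or of handling in the SGK1 levels was not tested.

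**Figure D4:**
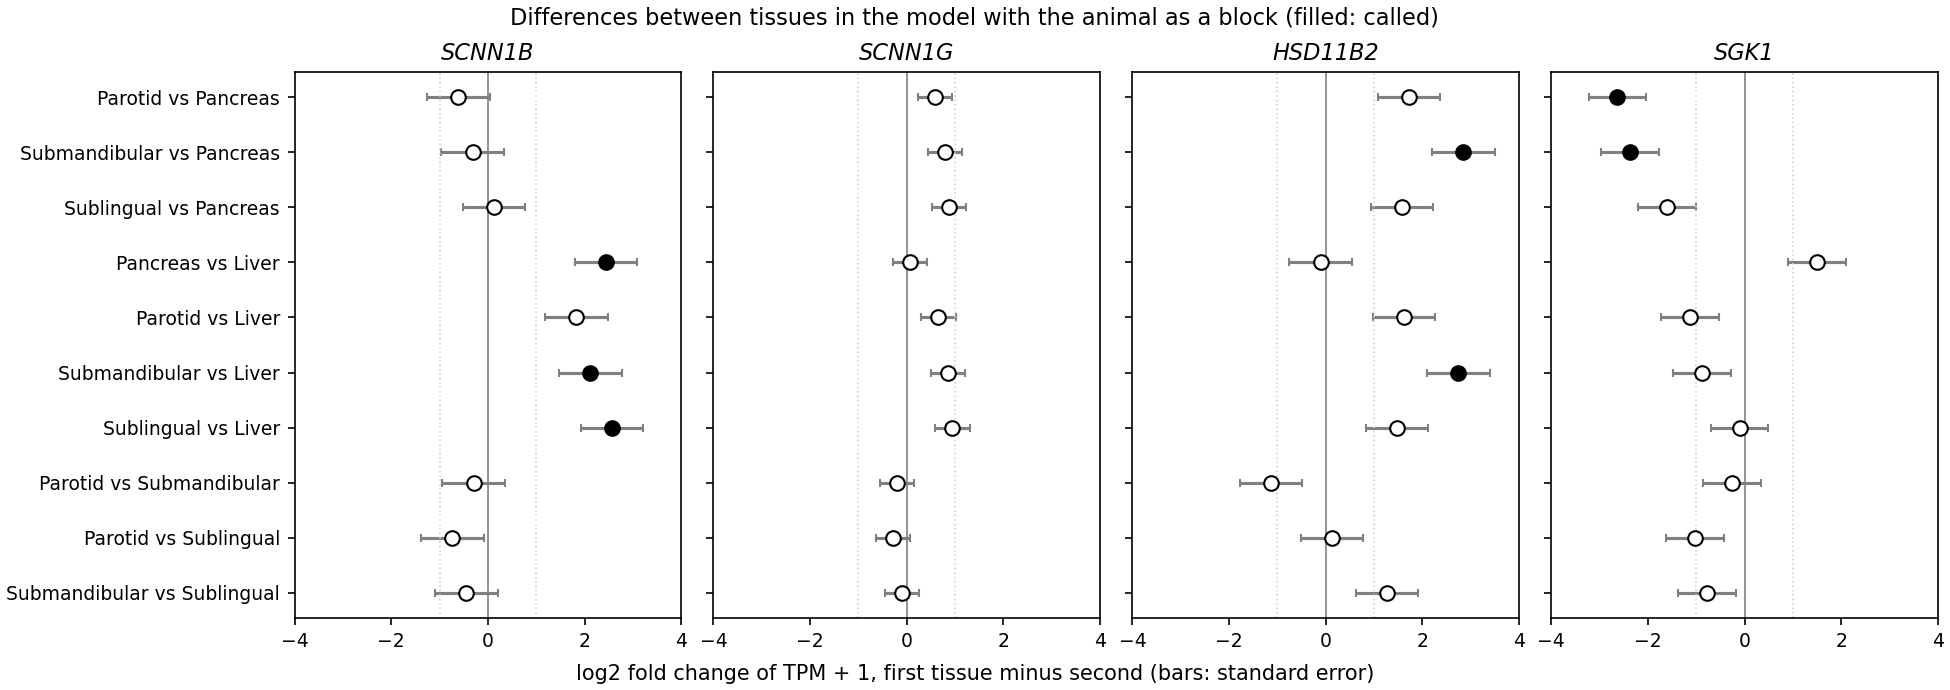
Differences of the 4 tested members in each of the 10 tissue pairs, on the log2(TPM + 1) scale, first tissue minus second, with standard errors of the limma fit as bars and filled points for called differences. Dotted lines mark a log2 fold change of 1 in either direction. The called differences are those of SCNN1B against liver in pancreas, submandibular and sublingual gland, of HSD11B2 in the submandibular gland against pancreas and liver, and of SGK1 in parotid and submandibular gland against pancreas.

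No member was called between any pair of glands, where few genes of any kind were. Of all 14991 genes, 0% were called between parotid and submandibular gland (254 genes had an unadjusted p under 0.05), 0.113% between parotid and sublingual gland and 0.0667% between submandibular and sublingual gland. None of the 4 members had an unadjusted p under 0.05 in these 3 pairs, while 1368 genes (9.13%) had one between parotid and sublingual gland and 2109 (14.1%) between submandibular and sublingual gland. HSD11B2 was higher in the submandibular than in the sublingual gland in 5 of 5 animals, by 1.26 (SE 0.65, adjusted p = 0.376). SGK1 was lower in the parotid than in the sublingual gland in 5 of 5 animals, by a difference of -1.03 (SE 0.60, adjusted p = 0.662). Without the 5 libraries low in AQP5, SGK1 was called lower in parotid (-1.93, adjusted p = 0.0267) and in the submandibular gland (-1.85, adjusted p = 0.0191) than in the sublingual gland. That fit called 4376 and 4646 genes of all kinds in these pairs. Its medians over all genes were -0.89 and -0.85, so much of each SGK1 difference was shared by the genes in general.

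Of 19 listed regulators of ENaC, 14 could be tested. SGK2, a kinase related to SGK1, was lower in parotid (-2.62), submandibular gland (-2.51) and sublingual gland (-3.20), with adjusted p-values of 0.0182, 0.0245 and 0.00277. It averaged 13.5 ± 3.19 TPM (SD, n = 5) in pancreas and under 1 TPM in 12 of 15 gland libraries. The exceptions were 23.1 TPM in the parotid of baboon 2 and 17.8 TPM in the submandibular gland of baboon 5, the libraries with the highest adipocyte sums (21274 and 6860 TPM), and 2.15 TPM in the submandibular gland of baboon 2. USP2, a deubiquitinase, was lower in parotid than in pancreas by a difference of -1.93 (adjusted p = 0.0136). With epithelial centring these calls were lost, with SGK2 at -1.36, -1.69 and -2.16 (adjusted p = 0.162, 0.419 and 0.0621) in the glands in the same order and USP2 at -0.68 (adjusted p = 0.438). NEDD4L, the ligase that removes ENaC, was higher in the sublingual gland (9.23 ± 6.62 TPM) than in pancreas (2.53 ± 0.491 TPM) by 1.30 (adjusted p = 0.0427), but by 0.66 (adjusted p = 0.297) with TMM scaling and 0.94 (adjusted p = 0.296) without the squamous-rich libraries. The list thus had 0 higher and 2 lower genes in parotid, 0 and 1 in the submandibular gland, and 1 and 1 in the sublingual gland, with median differences of 0.17, 0.17 and 0.72 against 0.45, 0.17 and 0.63 over all genes. The shares called were 14.3%, 7.14% and 14.3% of the list and 3.82%, 4.08% and 9.47% of all genes. In the sublingual gland the list had 0 higher and 1 lower gene without the squamous-rich libraries, when 579 genes were called in all, and 7 higher and 2 lower without those low in AQP5, when 4600 were. Without those high in adipocyte, lymphocyte or muscle markers it had 6 higher and 2 lower genes of 15 tested, when 5173 genes were called in all.

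PRSS8, the channel-activating protease prostasin, and ST14, the protease matriptase that acts with it, were higher in pancreas than in liver, as was SCNN1B. Their differences were 2.04 (SE 0.67, adjusted p = 0.0369) and 2.35 (SE 0.48, adjusted p = 0.000765), each in 5 of 5 animals. PRSS8 was 20.5 ± 4.47 TPM (SD, n = 5) in pancreas and 4.34 ± 1.73 TPM in liver. In the glands PRSS8 reached 161 TPM, and it was 2.08 to 7.12 TPM in the parotids of baboons 2 and 5 and the submandibular and sublingual glands of baboon 2. CNKSR3, a scaffold protein that links SGK1 to ENaC, went the other way, with a difference of -1.81 (adjusted p = 0.00489). With epithelial centring it was -1.17 (adjusted p = 0.872). These 3 of 14 regulators (21.4%) were called between pancreas and liver, against 17.5% of all genes.

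Of 14 listed genes for other sodium, potassium and proton transport of duct cells, 10 could be tested, and those called in the glands against pancreas were all higher. KCNN4, a calcium-activated potassium channel of salivary cells, differed by 2.83 in parotid, 3.22 in the submandibular gland and 2.06 in the sublingual gland, with adjusted p-values of 0.00336, 0.00081 and 0.0288. It was between 14.8 and 49.8 TPM in parotid, 34.2 ± 9.14 TPM (SD, n = 5) in the submandibular gland and 2.71 ± 0.698 TPM in pancreas. KCNMA1, the large-conductance potassium channel, was higher by 1.60 (adjusted p = 0.0369) in parotid and 1.46 (adjusted p = 0.0385) in the sublingual gland, and FXYD3, a regulator of the sodium pump, by 4.08 (adjusted p = 0.00534) in the sublingual gland. Without the squamous-rich libraries the sublingual differences of KCNMA1 and FXYD3 were 1.71 and 3.21 and not called (adjusted p = 0.0741 and 0.088).

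The count of called genes on this list was 3 of 10 in parotid, 2 in the submandibular gland and 3 in the sublingual gland, against 3.82%, 4.08% and 9.47% of all genes. The median differences were 1.42, 1.37 and 1.04, against 0.45, 0.17 and 0.63 over all genes. With TMM scaling both KCNMA1 calls and the sublingual KCNN4 call fell short of the threshold (adjusted p = 0.075, 0.229 and 0.139). The counts were then 2, 3 and 1 and the medians 1.04, 1.21 and 0.47. In the sublingual gland the count was 1 without the squamous-rich libraries and 6 without those low in AQP5, with medians over all genes of 0.29 and 0.76. Without those high in adipocyte, lymphocyte or muscle markers it was also 6, with a median over all genes of 0.82. Between pancreas and liver 0 of the 10 genes were called by limma.

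**Figure D5:**
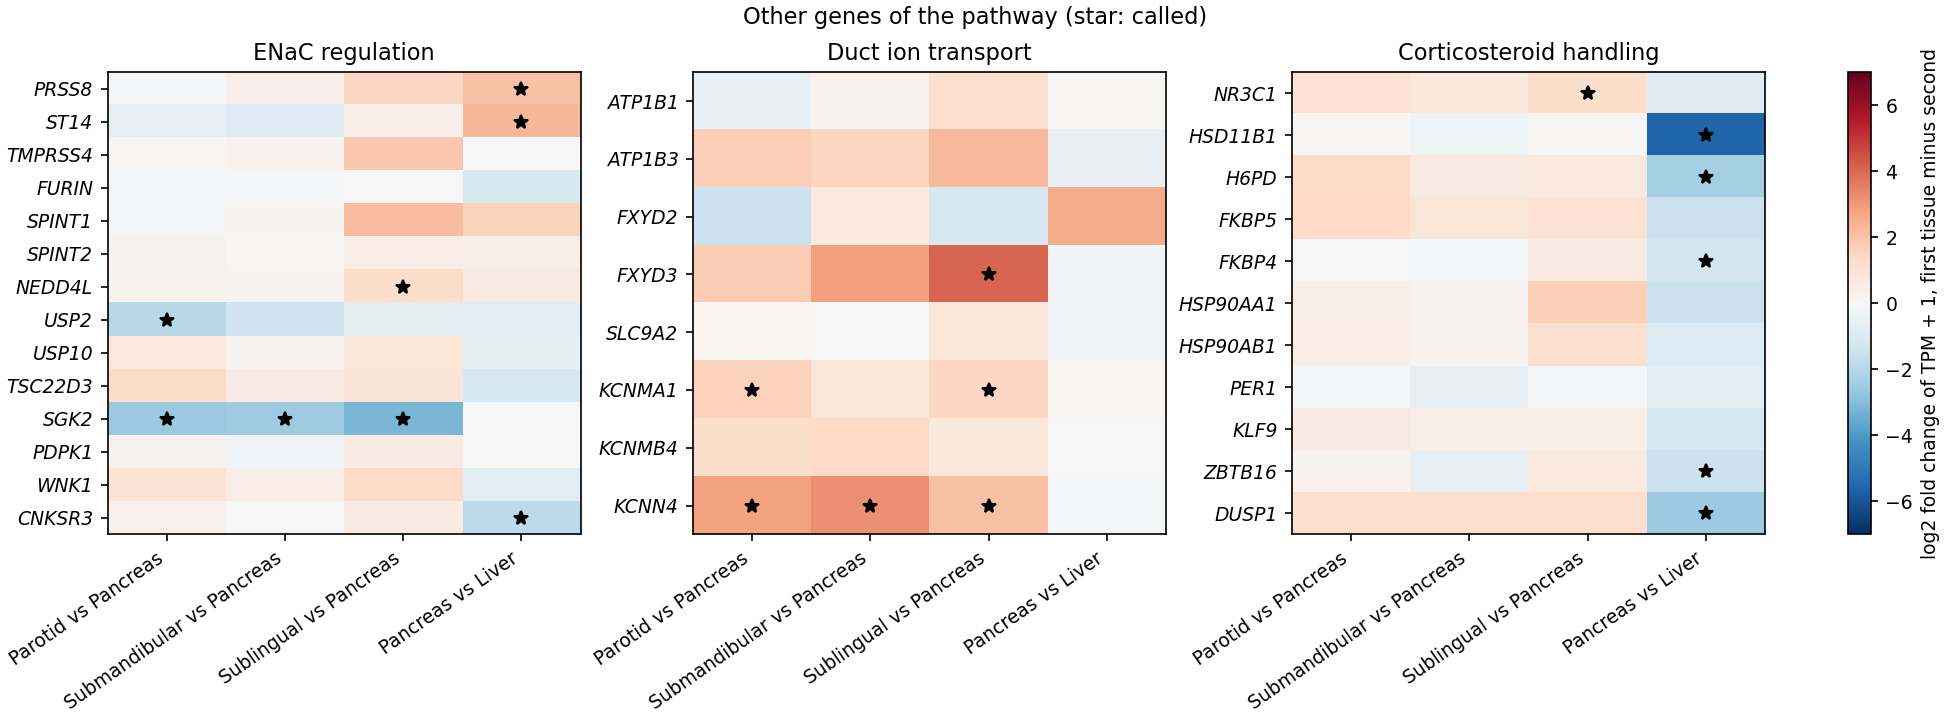
Heat maps of the differences of tested genes of the 3 lists of related genes in the glands against pancreas and in pancreas against liver, on the log2(TPM + 1) scale, with 1 row per gene, 1 column per comparison, red for higher in the first tissue, blue for lower and a star for called genes. KCNN4 is higher and SGK2 lower than pancreas in all 3 glands, and HSD11B1 has the lowest value in pancreas against liver, -5.63.

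Of 14 listed genes for corticosteroid receptors, metabolism, chaperones and targets, 11 could be tested. NR3C1 in the sublingual gland was the only one called between a gland and pancreas. Between pancreas and liver 5 of 11 (45.5%) were called, all lower in pancreas, in a comparison that called 17.5% of all genes, with a list median of -1.49 against -0.44 over all genes. Besides HSD11B1, the lowest differences were those of DUSP1, a glucocorticoid-induced phosphatase, at -2.54 (adjusted p = 0.00193), and H6PD, which supplies HSD11B1 with its cofactor, at -2.34 (adjusted p = 0.000117). With TMM scaling the HSD11B1, DUSP1 and H6PD differences were -5.10, -1.90 and -1.89 and still called, while FKBP4 (-0.62, adjusted p = 0.0803) and ZBTB16 (-0.95, adjusted p = 0.117), a receptor chaperone and a glucocorticoid-induced factor named after their values were seen, were not, which left 3 genes. With epithelial centring HSD11B1 alone was called (-4.99, adjusted p = 4.37e-06), with DUSP1 at -1.91 (adjusted p = 0.394) and H6PD at -1.70 (adjusted p = 0.272). Immediate early genes, which respond to handling like DUSP1, summed to 137 to 683 TPM in liver and 82.5 to 130 TPM in pancreas, and their part in the DUSP1 difference was not tested.

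The genes whose levels were most like each member's were ranked by Spearman rho among tested genes with a named symbol. Over the 15 gland libraries, HSD11B2 was followed most closely by FXYD2, the gamma subunit of the sodium pump (0.94), FOXI1, the transcription factor of ionocytes (0.94), and KLK1, the tissue kallikrein secreted by striated ducts (0.93). Over all 25 libraries they were TFCP2L1, one of the duct markers (0.88), DTNB (0.86) and FOLR1 (0.85). For SCNN1B they were ATP13A2, CD24 and KCNK1 (0.86, 0.82 and 0.81) over all libraries and GDF15, B3GNT5 and RASGRP1 (0.83, 0.81 and 0.81) over glands. For SCNN1G they were FAT2, CALML3 and the water and glycerol channel AQP3 (0.86, 0.84 and 0.84) over all libraries, and PRR4, KLK5 and SGPP2 (0.80, 0.75 and 0.73) over glands. The first list shared no gene with the second for either subunit.

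For NR3C2 the closest were ZMYND11, SEC22C and MSI2 (0.86, 0.82 and 0.80) over all libraries and RASL11B, ZMYND11 and PSME4 (0.84, 0.80 and 0.79) over glands. ZMYND11 was the only gene to appear in both lists of a member. For SGK1 they included NRG4 and SORBS3 (each 0.86) over all libraries and SMIM26, TMA16 and ZNF438 (0.97, 0.97 and 0.96) over glands. These are descriptions over libraries that share animals. In the glands they also have a varying content of other cells and a varying share of TPM in the most abundant genes.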

How the data were processed

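Per the labels, total RNA of 25 libraries (5 tissues of 5 animals) was sequenced as paired reads of 150 bases. The authors deposited TPM values per gene, named as kallisto abundances in the table. The kallisto version, index and genome build are not given in the sources used here. TPM totals ran from 999999.5 to 1000000.6 per library, so depth is unknown, no counting interval is given, and precision rests on the spread over 5 animals.

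Members were taken by symbol, and no library was left out. The 14991 genes whose mean reached 1 TPM in at least 1 tissue entered a limma fit of log2(TPM + 1) (limma 3.58.1, R 4.3.3, trend, tissue and animal as terms, all 25 libraries), in 10 tissue pairs, with Benjamini-Hochberg adjustment over genes. The code was tested on simulated data. Tables were made with Python 3.11.15, scipy 1.17.1, numpy 2.4.6 and pandas 2.3.3, and figures with matplotlib 3.10.9. Libraries are paired by animal, per the labels: deviations from tissue means correlated by 0.161 within an animal and by -0.035 between animals.

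The members and lists were chosen with earlier results of these data known. Besides members, the text names up to 3 called genes per list and direction in the comparisons of gland with pancreas and pancreas with liver, a set of genes needed to read the members, and the 3 genes most like each member. Some genes under this rule are not reported here, but they remain in the counts and medians. The listed genes NEDD4, SGK3, SLC9A3, ATP12A, CYP11B1, CYP11B2, POR and MYH7 were not used here. All 21287 identifiers matched a symbol in the RefSeq gene table of Panubis1.0, which gave names and neighbours only. Alternatives tried were a fit with no replicate block, a fit of only the tissues compared, TMM, median-of-ratios and epithelial scaling, other filters (none, or a mean of 5 TPM), a pseudocount of 0.1, and leaving out each animal or libraries high in markers of other tissue. Those left out as high in adipocyte, lymphocyte or muscle markers were the parotids of baboons 2 and 5, the submandibular gland of baboon 5 and the sublingual gland of baboon 2. The submandibular gland of baboon 2, with an adipocyte sum of 2775 TPM, was kept in that fit. Leaving out gland libraries with AQP5 under 10 TPM was added after seeing the data.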

Additional observations from a re-analysis of the deposited data

Results flagged for a closer look

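NR3C2 in liver had a lowest library that stood apart: baboon 5 was at 0.198 TPM, against 0.386 to 0.425 TPM in the other 4 animals. On the log2(TPM + 1) scale the gap to the nearest animal was 0.842 of the whole range, above the critical value of Dixon's test at 95% for 5 samples. It was 1 of 25 groups tested (5 members in 5 tissues), and chance flags about 1 group in 20. Baboon 5 was the only male.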

How the results depend on the processing

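Over 40 results (4 members in 10 tissue pairs) and 16 alternatives, 617 values were recomputed. Of these, 513 kept direction and side of the threshold, 16 lost a call, 48 gained one and 40 changed sign, and 25 of the 40 results kept their direction throughout. With a minimum mean of 5 TPM, SCNN1G gave no value. Unless a value or the construction of an alternative is given beside it, the cause was not tested. The number of members called was 1 for parotid against pancreas (0 to 1 with 1 animal left out, 2 without libraries low in AQP5). It was 2 for submandibular gland against pancreas (0 to 2 with 1 animal left out, 1 with epithelial centring and 1 with no replicate block). For sublingual gland against pancreas it was 0 (0 to 1 with 1 animal left out, 1 with TMM scaling, median-of-ratios scaling or a pseudocount of 0.1, and 2 with epithelial centring, without libraries high in adipocyte, lymphocyte or muscle markers, or without those low in AQP5). It was 1 for pancreas against liver (2 with either of these scalings, with only those tissues or without libraries low in AQP5). For parotid against liver it was 0 (1 with TMM scaling, only those tissues, or without libraries high in adipocyte, lymphocyte or muscle markers or in squamous markers, 2 with median-of-ratios scaling, a pseudocount of 0.1 or without libraries low in AQP5, and 3 with epithelial centring). It was 2 for submandibular gland against liver (1 to 3 with 1 animal left out, 4 without libraries low in AQP5) and 1 for sublingual gland against liver (0 to 3 with 1 animal left out, 0 with only those tissues or without libraries high in squamous markers, 2 with a pseudocount of 0.1, and 3 with epithelial centring, without libraries high in adipocyte, lymphocyte or muscle markers, or without those low in AQP5). For parotid and for submandibular against sublingual gland it was 0, and 1 (SGK1) without libraries low in AQP5.

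With epithelial centring the sign changed for SCNN1B in parotid (0.64) and submandibular gland (0.50) against pancreas and parotid against submandibular gland (0.14), for SCNN1G (0.23) and SGK1 (0.18) in that last pair, for HSD11B2 in pancreas against liver (0.53), and for SGK1 in parotid (0.75), submandibular (0.58) and sublingual gland (1.57) against liver. With TMM and median-of-ratios scaling it changed for HSD11B2 in pancreas against liver (0.41 and 0.43), SCNN1B in sublingual gland against pancreas (-0.57 and -0.57) and submandibular against sublingual gland (0.14 and 0.12), and SCNN1G in parotid (0.14 and 0.12) and submandibular (0.43 and 0.43) against sublingual gland. With a pseudocount of 0.1, SCNN1B in sublingual gland against pancreas was -0.10. Without libraries high in squamous markers it was -1.52, and parotid against sublingual gland was 0.91 for SCNN1B, 0.10 for SCNN1G and -0.45 for HSD11B2, with submandibular against sublingual gland at 1.20 for SCNN1B and 0.30 for SCNN1G. SGK1 in sublingual gland against liver was 0.32 without libraries low in AQP5 and 0.22 without those high in adipocyte, lymphocyte or muscle markers, where SCNN1G in parotid against submandibular gland was 0.0038. With 1 animal left out, ranges that crossed 0 were -0.44 to 0.70 for SCNN1B in sublingual gland against pancreas, -1.39 to 0.0893 in parotid and -1.12 to 0.24 in submandibular against sublingual gland. They were -0.39 to 0.0205 for SCNN1G in submandibular against sublingual gland, -0.27 to 0.81 for HSD11B2 in parotid against sublingual gland, -0.56 to 0.32 for SGK1 in parotid against submandibular gland and -0.69 to 0.17 for SGK1 in sublingual gland against liver.

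The fit with no replicate block changed the call of SGK1 in submandibular gland against pancreas and no other member's call. Over all genes, the count called was 572 (315 to 1812 over the alternatives) for parotid, 611 (286 to 1283) for submandibular and 1419 (393 to 5173) for sublingual gland against pancreas, 2623 (804 to 4313) for pancreas against liver, and 2064 (1335 to 8258), 2474 (1535 to 4893) and 2316 (1543 to 7799) for the same glands against liver. Between glands it was 0 (0 to 20), 17 (0 to 4376) and 10 (0 to 4646). The share of these higher in the first tissue was 37.1%, 31.1% and 73.6% for parotid, submandibular and sublingual gland against pancreas, and 33.2%, 34.4% and 38.6% with TMM scaling, or 95.1%, 69.6% and 96.2% with epithelial centring. For pancreas against liver it was 16.3% (39.5% and 32.6%), and for the glands against liver 20.6% (37.9% and 94.7%), 15.8% (38.9% and 74.5%) and 38.4% (40.1% and 94.3%). Depth is unknown, so levels near 0 such as SCNN1G in pancreas and liver have no counting error.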
